A study of Mus musculus with 4 samples.

Results

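This account covers 10 genes that encode transcriptional regulators of the thermogenic (beige) programme of fat cells, found by their symbols in a table of 19030 genes. There were 7 activators (*Prdm16*, *Ebf1*, *Ebf2*, *Zfp516*, *Irf4*, *Cebpa* and *Cebpb*) and 3 repressors (*Tle3*, *Zfp423* and *Twist1*), and all 10 were measured in every library. RNA was sequenced from the inguinal white fat (ingWAT), a depot under the skin, of C57BL/6 mice aged 3 months and housed at 4°C, and the methods describe male mice and a cold exposure of several weeks. Ctrl mice were Oct3 fl/fl, carrying loxP sites in *Slc22a3*, the gene for the catecholamine transporter Oct3. The cKO mice were Oct3 fl/fl and carried Adiponectin-Cre, whose promoter drives the recombinase in adipocytes, so that other cells of the depot kept the gene. The floxed allele was thus common to both groups, and a group carrying the Cre without it was not analysed here. There were 2 libraries per genotype. The sources do not say how many mice each library holds or whether the libraries came from separate mice, so the p-values measure only the spread between these libraries.

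Beige adipocytes are thermogenic fat cells that appear in white depots during cold exposure. Norepinephrine from sympathetic nerves acts through β-adrenergic receptors, cAMP and the factor Creb, and the gene programme that follows depends on Prdm16, a coregulator that binds C/EBP factors and PPARγ, and on Ebf2, which opens the chromatin of brown fat genes. Tle3 and Zfp423 counter Prdm16 and Ebf2 and hold adipocytes in the white state, and Twist1 binds Pgc-1α at its targets and lowers their transcription.

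Levels are FPKM, the fragments of a gene per length of transcript and per number of mapped reads in the library, so they are scaled per length. The estimated depth was 17350000 to 18100000 reads per library, and each regulator rested on at least 251 estimated reads in each library. Differences were tested with limma on log2(FPKM + 1) over 12658 genes with a mean of at least 1 FPKM, and a gene was called at an adjusted p under 0.05 (Benjamini-Hochberg). Fold changes on this scale are understated for low genes. *Slc22a3* stood at 17.0 and 17.7 FPKM in Ctrl and 9.07 and 9.5 FPKM in cKO (log2 fold change -0.83, standard error 0.066, adjusted p = 0.000439). All 10 white adipocyte markers were detected in every library, with *Fabp4* between 13456 and 16398 FPKM. Skeletal muscle markers set the groups apart, with 10 of 10 tested genes lower in cKO and a summed level of 1646 to 2449 FPKM in Ctrl against 8.5 to 10.7 FPKM in cKO.

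The regulators did not move as a block. *Cebpb* was higher in cKO ingWAT, *Cebpa*, *Ebf1*, *Ebf2* and *Twist1* were lower, and *Prdm16*, *Zfp516*, *Irf4*, *Tle3* and *Zfp423* did not pass the test. The 5 called genes of 10 stand against 25.8% of all genes tested, where 12% were higher and 13.8% were lower. Both sides of this comparison rest on all 4 libraries. Without Ctrl 1, 787 genes in place of 3269 and 2 regulators (*Cebpb* and *Twist1*) were called, and 1478 genes and the same 2 regulators when Ctrl 2 was left out. There were 2152 genes and 3 regulators without cKO 1, and 2340 genes and 4 regulators without cKO 2. The 2 cKO libraries lay outside the range of the Ctrl libraries for 8 of the 10 regulators, 3 above and 5 below, against 66.5% of all genes (31.9% above and 34.6% below), so that lack of overlap alone says little here. The median log2 fold change of the 10 was -0.16, against -0.006 over all genes tested. In a bulk tissue, fewer cells of a type and less RNA per cell cannot be told apart.

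**Figure D1:**
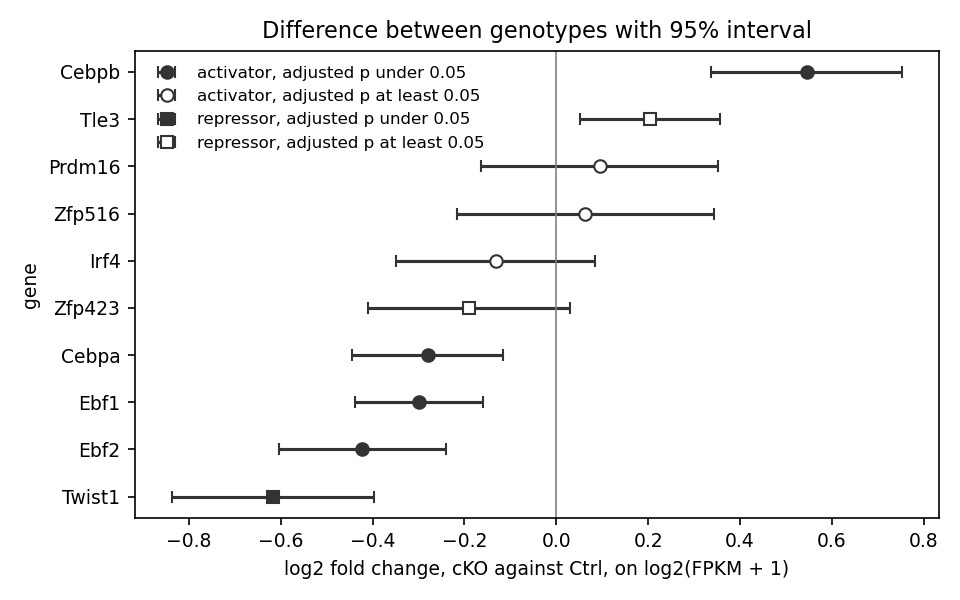
Log2 fold change of cKO against Ctrl for each regulator on the log2(FPKM + 1) scale, with its 95% interval from limma (2 libraries per genotype). Filled symbols have an adjusted p under 0.05, circles are activators and squares repressors. *Cebpb* is at 0.55 and *Twist1* at -0.62.

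The regulators covered a wide range of levels. Their mean FPKM in Ctrl spanned a factor of 205 from *Prdm16* to *Cebpa*, and in cKO a factor of 153. In Ctrl the order from high to low was *Cebpa*, *Cebpb*, *Twist1*, *Ebf1*, *Tle3*, *Ebf2*, *Irf4*, *Zfp423*, *Zfp516* and *Prdm16*, where *Twist1* overlapped *Ebf1* and *Ebf2* overlapped *Irf4*. In cKO *Tle3* came next after *Cebpb*, above *Ebf1* and *Twist1*, *Irf4* stood above *Ebf2*, and no neighbours overlapped. *Cebpa* ranked 245 of 12658 genes by mean level and *Prdm16* ranked 11412.

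**Figure D2:**
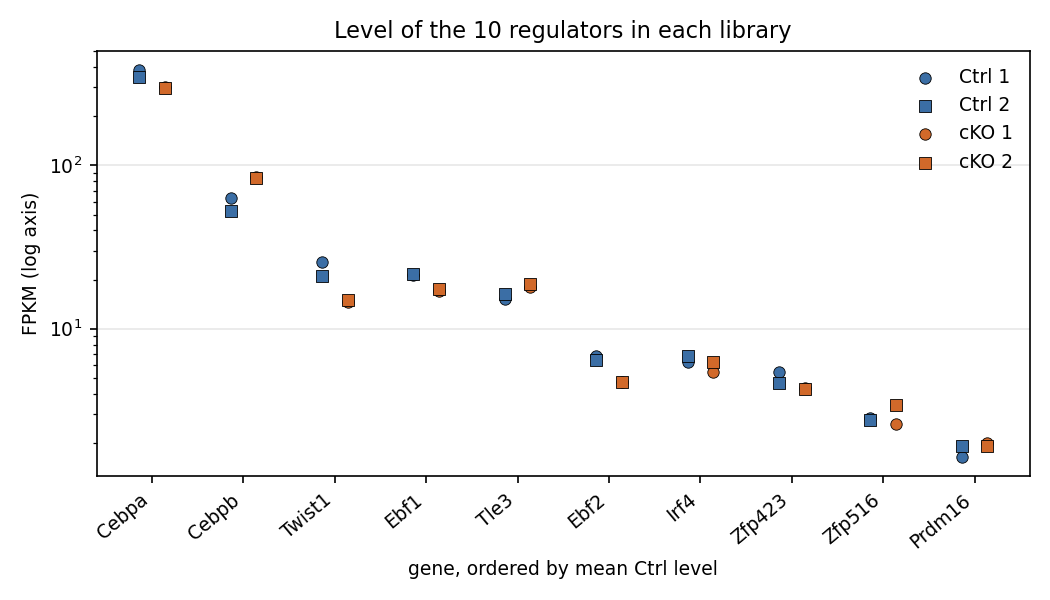
FPKM of each regulator in each of the 4 libraries, on a log axis, with genes ordered by mean Ctrl level. Circles are replicate 1 and squares replicate 2. *Cebpa* lies between 298 and 383 FPKM and *Prdm16* between 1.65 and 2.01 FPKM, and the *Twist1* points of cKO (14.6 and 15.1 FPKM) lie below those of Ctrl (21.1 and 25.6 FPKM).

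*Prdm16* encodes the coregulator that directs brown and beige fate. It stood at 1.65 and 1.91 FPKM in Ctrl and at 2.01 and 1.92 FPKM in cKO. The lower cKO library exceeded the higher Ctrl library by a hundredth of an FPKM unit. The log2 fold change was 0.09, with a 95% interval from -0.16 to 0.35 (limma, adjusted p = 0.568), and it was 0.03 without Ctrl 1 and 0.16 without Ctrl 2. *Zfp516*, a cold-induced zinc finger activator of *Ucp1* that works with Prdm16, stood at 2.85 and 2.76 FPKM in Ctrl. Its cKO values of 2.6 and 3.39 FPKM lay on either side of both Ctrl libraries. Its log2 fold change was 0.06 (95% interval -0.22 to 0.34, limma adjusted p = 0.732), and without the second cKO library it was -0.08. Both genes rested on few reads, 251 to 299 for *Prdm16* and 346 to 455 for *Zfp516*, where counting error alone is 6.31% and 5.38% of the lowest value. This limit was not theirs alone. Reads were similarly few for *Zfp423* (319 to 480), *Ebf2* (351 to 533), *Twist1* (402 to 739) and *Irf4* (446 to 571). Their counting errors at the lowest value were 5.60%, 5.34%, 4.99% and 4.74%.

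*Irf4*, which acts with Pgc-1α on thermogenic genes in adipocytes and is also a factor of B cells and plasma cells, stood at 6.22 and 6.79 FPKM in Ctrl. In cKO it stood at 5.44 and 6.28 FPKM, so that the groups overlapped. The log2 fold change was -0.13 (95% interval -0.35 to 0.09, limma adjusted p = 0.337), and it was -0.04 without cKO 1, -0.08 without Ctrl 2 and -0.22 without cKO 2. B cell markers were higher in cKO for 11 of 12 genes, with a summed level of 287 to 324 FPKM in Ctrl and 439 to 495 FPKM in cKO and none at 0. The defining markers *Cd79a* (88.8 and 101 against 147 and 167 FPKM), *Ms4a1* (25.4 and 30.7 against 40.7 and 47.5 FPKM) and *Pax5* (11.8 and 12.4 against 16.5 and 19.3 FPKM) were among them. Plasma cell markers summed to 145 to 147 FPKM in Ctrl and 99.1 to 124 FPKM in cKO, with 1 of 6 higher, 2 lower and none at 0. Most of that sum was *Xbp1*, which other secretory cells also express, at 107 and 101 FPKM in Ctrl and 65.3 and 79.8 FPKM in cKO. Of the others *Jchain* was lower (-0.41), *Mzb1* was higher (0.48) and *Sdc1* was not called (-0.02). What part of the *Irf4* level came from these cells was not tested.

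The EBF factors were lower in cKO. *Ebf2* (chromosome 14, 67233292 to 67430952, GRCm38.p6), the selective marker and pioneer factor of brown and beige precursors, stood at 6.82 and 6.47 FPKM in Ctrl and 4.69 and 4.72 FPKM in cKO. The cKO libraries were both below the Ctrl libraries, and the log2 fold change was -0.42 (standard error 0.0771, limma adjusted p = 0.00803). *Ebf1* (chromosome 11, 44618100 to 45008096), which has overlapping roles in fat cells and is required for the B cell lineage, stood at 21.3 and 21.6 FPKM in Ctrl and 17.0 and 17.5 FPKM in cKO. It fell by 0.30 on the log2 scale (standard error 0.0591, limma adjusted p = 0.0107). Of the 12 B cell markers 11 rose, and the part of B cells in the *Ebf1* level was not tested. *Ebf3*, the paralog of both, went from 10.6 and 10.8 FPKM to 8.53 and 7.9 FPKM (log2 fold change -0.35, adjusted p = 0.0128), and *Ebf4* was at 0.31 to 0.33 FPKM in every library, under the filter. Fibroblast progenitor markers, cells in which EBF factors are also found, fell for 9 of 12 genes and summed to 1308 and 1524 FPKM in Ctrl and 868 and 899.6 FPKM in cKO, with none at 0. Their part in the EBF result was not tested. The *Ebf1* call was lost without Ctrl 1 (adjusted p = 0.0883), Ctrl 2 (0.0817) or cKO 1 (0.0528), and the *Ebf2* call without Ctrl 1 (0.107) or Ctrl 2 (0.0614), where the range over all 11 alternatives was 0.00542 to 0.0883 and 0.00492 to 0.107.

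The C/EBP pair moved apart. C/EBPα and C/EBPβ are the factors that Prdm16 binds, C/EBPβ early in brown and beige differentiation and C/EBPα in mature fat cells and in Prdm16 complexes that repress white genes. *Cebpb* (chromosome 2, 167688915 to 167690432) stood at 62.9 and 52.2 FPKM in Ctrl and at 84.4 and 83.7 FPKM in cKO. Both cKO libraries lay above both Ctrl libraries, the mean was 46.1% higher, and the log2 fold change was 0.55 (standard error 0.0880, limma adjusted p = 0.00508). *Cebpa* (chromosome 7, 35119293 to 35121928), the most abundant of the 10, stood at 383 and 347 FPKM in Ctrl and 302 and 298 FPKM in cKO. Neither cKO value reached a Ctrl value, and the log2 fold change was -0.28 (standard error 0.0694, limma adjusted p = 0.0251). The *Cebpa* call was lost without any 1 of the 4 libraries, at adjusted p = 0.205 without Ctrl 1, 0.0647 without Ctrl 2, 0.0772 without cKO 1 and 0.0858 without cKO 2 (0.0111 to 0.205 over 11 alternatives). The *Cebpb* call held without each library and was lost only with no filter on low genes (adjusted p = 0.0551; range over 11 alternatives 0.000785 to 0.0551).

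C/EBP factors are also made by other cells of the depot. Macrophage and dendritic cell markers, cells in which C/EBPβ is abundant, rose for 2 of 13 genes (*Cd68* at 0.73 and *Itgax* at 0.47) and fell for 5, among them *Cd163* (-1.10), *Cd209a* (-0.75) and *Mrc1* (-0.72). Their summed level was 1045 to 1194 FPKM in Ctrl and 1087 to 1105 FPKM in cKO, with none at 0. The largest part of that sum was *Lyz2*, at 593 and 543 FPKM in Ctrl and 607 and 649 FPKM in cKO (not called). The next largest, *C1qa*, fell from 226 and 185 FPKM to 158 and 156 FPKM, so the sum does not describe the other markers. White adipocyte markers, which stand beside *Cebpa*, fell for 4 of 10 genes (*Lep*, *Adipoq*, *Dgat2* and *Cfd*), with sums of 31243 to 32741 FPKM in Ctrl and 25339 to 25379 FPKM in cKO and none at 0. Most of that sum was *Fabp4* and *Cfd*, so it does not describe the other markers. The 6 markers not called were *Fabp4* (-0.25), *Slc2a4* (-0.16), *Plin1* (-0.07), *Lipe* (-0.02), *Pnpla2* (0.05) and *Cidec* (0.07). The part of these cell types in the C/EBP results was not tested. Among the other C/EBP genes, *Cebpd*, an early adipogenic factor, fell (log2 fold change -0.43, limma adjusted p = 0.0101) and *Ddit3*, a stress-induced C/EBP that blocks the others, rose (0.35, adjusted p = 0.0107). *Cebpg* had a log2 fold change of 0.05 and was not called. Neither was *Cebpz* (0.21), which was listed by its name alone.

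The promoters of both C/EBP genes and of *Twist1* are shown because these 3 genes include *Cebpb*, the regulator called higher, and *Twist1*, the called regulator with the lowest log2 fold change, and because Creb, the factor at the end of the norepinephrine pathway, binds the letters TGACG. The sequences are the 250 bases before the RefSeq transcription start on GRCm38.p6, written 5′ to 3′ on the strand of the gene (plus strand in all 3), with TGACG, or CGTCA where it lies on the other strand, in capitals.
Cebpb chr2:167688665-167688914: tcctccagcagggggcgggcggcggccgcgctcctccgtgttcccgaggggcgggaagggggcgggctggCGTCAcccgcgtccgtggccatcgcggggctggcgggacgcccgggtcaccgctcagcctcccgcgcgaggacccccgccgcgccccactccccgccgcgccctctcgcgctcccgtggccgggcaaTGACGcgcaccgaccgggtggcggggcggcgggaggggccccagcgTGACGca
Cebpa chr7:35119043-35119292: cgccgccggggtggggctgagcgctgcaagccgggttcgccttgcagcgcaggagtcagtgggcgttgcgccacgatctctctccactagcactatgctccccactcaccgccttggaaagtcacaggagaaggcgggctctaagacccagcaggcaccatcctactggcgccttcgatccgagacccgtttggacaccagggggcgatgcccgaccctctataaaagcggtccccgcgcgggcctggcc
Twist1 chr12:33957421-33957670: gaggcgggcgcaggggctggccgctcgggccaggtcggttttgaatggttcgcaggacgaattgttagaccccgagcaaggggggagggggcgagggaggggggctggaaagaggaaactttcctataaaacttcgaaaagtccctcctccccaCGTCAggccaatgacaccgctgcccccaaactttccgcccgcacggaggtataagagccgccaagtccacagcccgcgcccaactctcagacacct
The *Cebpb* window held 3 matches, which began 180, 53 and 7 bases before the start, and the *Twist1* window held 1. No match lay in the *Cebpa* window. A promoter entry was found for 8 of the 10 regulators, all except *Ebf2* and *Zfp516*. Of the others, *Tle3* had 1 match and *Ebf1*, *Irf4*, *Prdm16* and *Zfp423* had none. *Ebf1* and *Zfp423* had more than 1 window. Those of *Prdm16* and *Zfp423*, and 1 of *Ebf1*, lay inside the gene, before an internal start. The bases before the outermost start of *Prdm16* and *Zfp423* were therefore not searched. Among 32851 mouse promoters of the same length, 17.8% held at least 1 match and 0.688% held 3 or more. The full palindrome TGACGTCA, which contains TGACG on both strands, was in 1.55% of all promoters and in none of the windows of the 8 regulators. These are matches of letters and not measured binding.

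Of the repressors, *Twist1* was the one called. It encodes a helix-loop-helix factor that binds Pgc-1α and lowers the transcription of its targets, and it is also expressed in fibroblasts. *Twist1* (chromosome 12, 33957671 to 33959831) stood at 25.6 and 21.1 FPKM in Ctrl and 14.6 and 15.1 FPKM in cKO. The cKO values lay under both Ctrl values, the mean fell by 36.6%, and the log2 fold change was -0.62 (standard error 0.0934, limma adjusted p = 0.00396). The call held under all 11 alternatives, where the adjusted p ran from 0.000576 to 0.0498. *Twist2*, its paralog, fell from 8.03 and 7.86 FPKM to 4.81 and 6.08 FPKM (log2 fold change -0.48, adjusted p = 0.0158). The fibroblast progenitor markers fell beside them, with a median log2 fold change of -0.78 over 12 genes that ran from *Pi16* (-1.94), *Cd34* (-1.05) and *Mfap5* (-1.03) to *Thy1* (0.26, not called). What part of the *Twist1* result moved with these cells was not tested.

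*Zfp423*, which binds and holds back Ebf2 in white adipocytes, stood at 5.45 and 4.68 FPKM in Ctrl and 4.36 and 4.25 FPKM in cKO. The genotypes did not overlap, with cKO lower, but the log2 fold change of -0.19 (95% interval -0.41 to 0.03) did not pass the test (limma adjusted p = 0.181). It was -0.10 without Ctrl 1 and -0.28 without Ctrl 2. Its close paralog *Zfp521*, also a partner that blocks Ebf factors, fell from 2.47 and 2.4 FPKM to 1.15 and 1.43 FPKM (log2 fold change -0.59, adjusted p = 0.00994). *Tle3*, the groucho corepressor that competes with Prdm16 for PPARγ, stood at 15.3 and 16.3 FPKM in Ctrl and 18.0 and 18.7 FPKM in cKO. Both cKO libraries lay above both Ctrl libraries, and the log2 fold change was 0.20 (95% interval 0.05 to 0.36, limma adjusted p = 0.0574). Of its paralogs only *Aes*, a short groucho protein, passed the test, at 305 and 298 FPKM in Ctrl and 398 and 366 FPKM in cKO (log2 fold change 0.34, adjusted p = 0.0112), while *Tle1*, *Tle2*, *Tle4* and *Tle6* had log2 fold changes from -0.22 to 0.14. *Tle3* passed under median-of-ratios scaling (adjusted p = 0.0399), quantile normalization (0.0498) and a filter at 5 FPKM (0.0436), and its adjusted p reached 0.284 over the 11 alternatives.

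The relatives of *Prdm16* and *Irf4* are given beside the 25.8% called among all genes, and the families were not tested against each other. Of the 7 PRDM genes tested, *Prdm16* included, limma called 0, and 1 had an unadjusted p under 0.05. This was *Mecom*, a zinc finger relative of Prdm16, at a log2 fold change of -0.32 (adjusted p = 0.103). *Prdm2*, *Prdm4*, *Prdm9*, *Prdm10* and *Prdm15* had log2 fold changes from -0.08 to 0.08. Of the IRF genes, 4 of 8 tested rose, namely *Irf7* (log2 fold change 0.83) and *Irf9* (0.27) of the interferon response, *Irf5* (0.58) of macrophages and *Irf8* (0.50) of myeloid and B cells. *Irf1*, *Irf2* and *Irf3* had values from 0.08 to 0.10 and were not called.

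Ratios of the FPKM of 2 regulators within a library do not depend on the scaling of that library. The differences and intervals below are on log2(FPKM + 1), where the scaling does not cancel exactly, least so for low genes. For these genes the differences also depart from the log2 of the printed ratios. The ratio of *Cebpa* to *Cebpb* was 6.09 and 6.65 in Ctrl and 3.57 and 3.57 in cKO. Every cKO library lay below every Ctrl library, and the difference of the log2 ratio, on log2(FPKM + 1), was -0.83 (95% interval -1.03 to -0.62). Each such difference is 1 log2 fold change given above minus another, so the ratios are not further evidence. The ratio of *Cebpb* to *Twist1* joins the highest and the lowest log2 fold change of the regulators. It therefore had the largest log2 difference of the 6 pairs by construction. It went from 2.45 and 2.47 in Ctrl to 5.80 and 5.55 in cKO, a difference of 1.16 (95% interval 0.97 to 1.35). The ratio of *Prdm16* to *Twist1* was 0.0644 and 0.0906 in Ctrl and 0.138 and 0.127 in cKO (0.71, 95% interval 0.33 to 1.09). Most of this difference was that of *Twist1* (-0.62), since *Prdm16* alone had a log2 fold change of 0.09. The ratio of the activator *Ebf2* to its repressor *Zfp423* was 1.25 and 1.38 in Ctrl and 1.08 and 1.11 in cKO, with an interval that included 0 (-0.23, 95% interval -0.50 to 0.04). The intervals of *Prdm16* to *Tle3* (-0.11, -0.40 to 0.18) and *Ebf1* to *Ebf2* (0.12, -0.11 to 0.35) also included 0. The 6 intervals were not adjusted for their number.

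**Figure D3:**
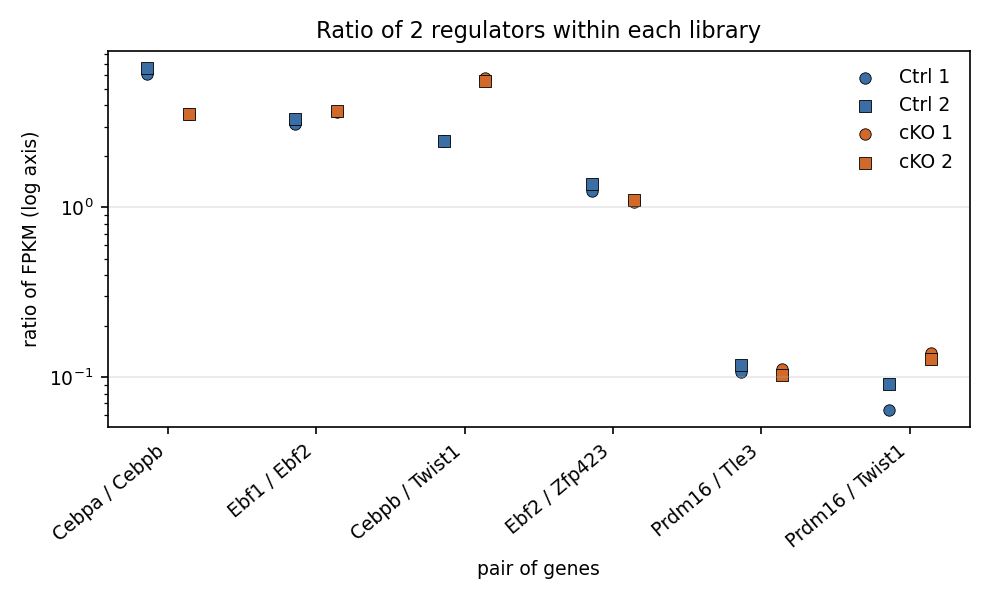
Ratio of the FPKM of 2 regulators in each library, on a log axis, for the 6 pairs compared. Blue points are Ctrl and orange points cKO. The ratio of *Cebpa* to *Cebpb* lies at 6.09 and 6.65 in Ctrl and at 3.57 in both cKO libraries, and that of *Cebpb* to *Twist1* goes from 2.45 and 2.47 to 5.80 and 5.55.

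The genes around these regulators were taken from lists of partners, further factors and targets. Of 11 partners and cofactors of Prdm16, 2 rose and 1 fell, with a median log2 fold change of -0.002. *Ppargc1a*, the Pgc-1α coactivator that Twist1 binds, went from 1.97 and 2.16 FPKM in Ctrl to 4.56 and 4.35 FPKM in cKO (log2 fold change 0.83, limma adjusted p = 0.00133). *Ppargc1b*, its relative, rose by a like amount (0.81). *Pparg*, the receptor at the centre of fat cell identity, fell from 141 and 143 FPKM to 116 and 123 FPKM (-0.25, adjusted p = 0.0196). The corepressors Ctbp and the histone enzymes of the list, *Ctbp1*, *Ctbp2*, *Ehmt1*, *Kdm1a*, *Hdac1* and *Hdac2*, had log2 fold changes from -0.07 to 0.07 and did not pass the test.

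Of 19 other activators tested, 5 rose and 6 fell (median -0.11). The largest rises on this scale were those of the fatty acid receptor *Ppara* (1.04) and the mitochondrial regulators *Esrrg* (0.66) and *Esrra* (0.30). *Esrrg* was low, at 0.75 and 1.19 FPKM in Ctrl and 2.14 and 2.04 FPKM in cKO. As a ratio of mean FPKM it was 2.15 times its Ctrl level, *Ppara* 2.17 times and *Esrra* 1.24 times. Among the falls were those of *Tbx15* (-0.89), a factor of subcutaneous fat that also acts in muscle, and of *Zbtb16* (-0.58). Skeletal muscle markers fell in the same libraries (sums above), and the part of muscle in *Tbx15* was not tested. Of 16 other repressors, 4 fell (median -0.14), with *Hoxc8* (-0.66), *Zfp521* (-0.59) and *Twist2* (-0.48) lowest. Of 13 adipogenic factors, 7 fell (median -0.25), with *Klf4* (-0.52), *Srebf1* (-0.51), the driver of fat synthesis, and *Klf15* (-0.49) lowest.

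The targets of this programme are given here beside their regulators. Of 12 thermogenic targets 11 rose (median 1.16). *Ucp1*, the uncoupling protein that makes heat, was at 335 and 446 FPKM in Ctrl and 1658 and 1420 FPKM in cKO (log2 fold change 1.99). *Elovl3* (1.95) and *Dio2* (1.80) had the next log2 fold changes on this scale, which understates low genes. As a ratio of mean FPKM *Dio2* was 4.37 times its Ctrl level, *Ucp1* 3.94 times and *Elovl3* 3.90 times. Of 6 white-selective targets that Prdm16 represses, 4 fell (median -0.59), with *Agt* (-1.21), *Retn* (-0.78) and *Psat1* (-0.71) lowest. Among the called regulators the median absolute log2 fold change was 0.42, against 0.43 over all called genes. The regulator levels and the target levels come from the same 4 libraries, so their joint movement is a description.

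**Figure D4:**
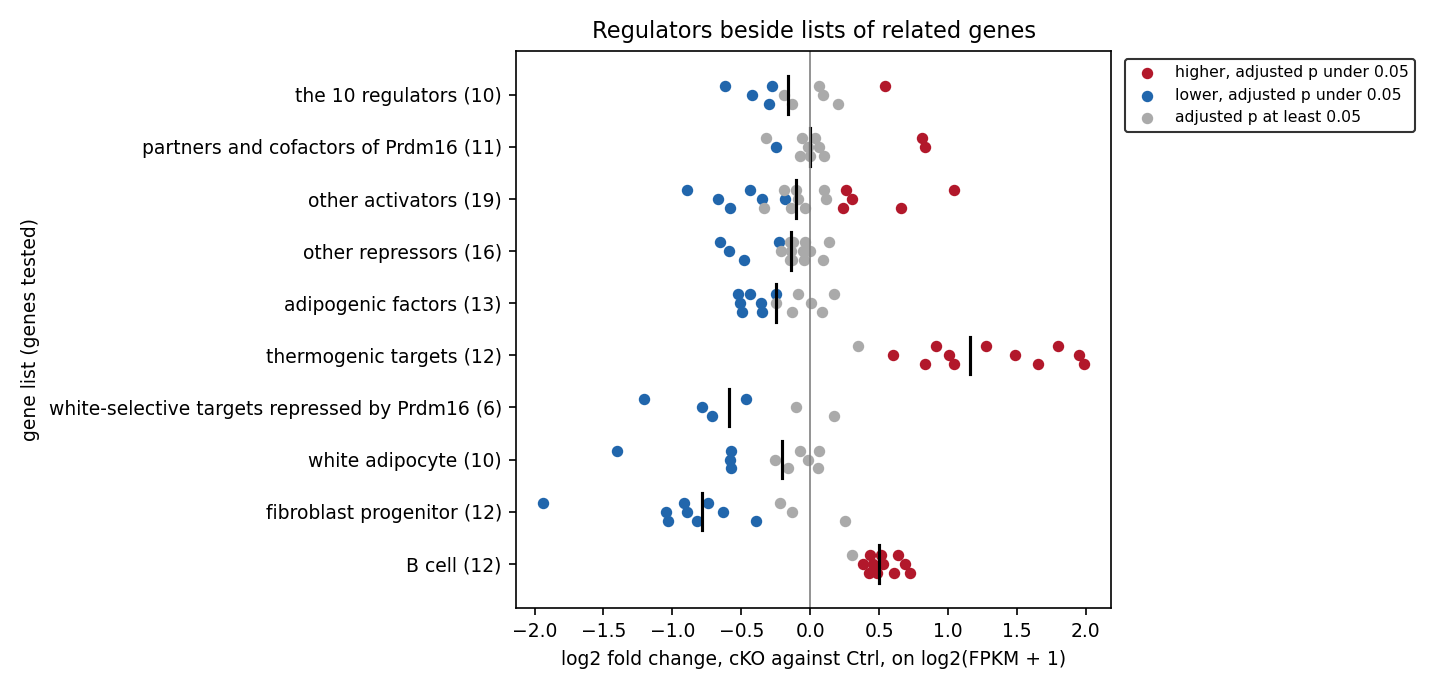
Log2 fold change of cKO against Ctrl for the 10 regulators, the lists of related genes and 3 lists of cell markers (1 point per gene tested, black bar the median). Red points were called higher, blue points lower, grey points did not pass an adjusted p of 0.05. Medians run from -0.78 for fibroblast progenitor markers to 1.16 for thermogenic targets, with -0.16 for the regulators.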

How the data were processed

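The authors sequenced poly(A) RNA of ingWAT as single-end reads and deposited 1 table of FPKM per gene and library. The submitters' processing notes name HISAT2 2.0.4, RSEM 1.2.12 and mm10. Scaling between libraries and strand are not given in the sources used here, so reads of a gene and an antisense partner cannot be told apart. The column names Control and Deficient in the table were matched to Ctrl and cKO by the sample titles.

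The FPKM values of 19030 genes were read as deposited. The 12658 genes that averaged 1 FPKM or more were compared on log2(FPKM + 1), using limma 3.58.1 (R 4.3.3) (eBayes with trend, two-sided, Benjamini-Hochberg adjustment over these genes). Ratios of regulators were planned as rows of this fit. Because the trend at a ratio's own mean does not describe its variance, each was instead moderated with the sum of the prior variances of its 2 genes. Sequences, depth and figures were handled in Python 3.11.15 (matplotlib 3.10.9, numpy 2.4.6, pandas 2.3.3). Promoters were taken from a RefSeq table of GRCm38.p6, the same assembly as mm10.

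The regulators and all gene lists were chosen with earlier results of these data known. All regulators, their paralogs at a mean of at least 1 FPKM, *Slc22a3*, *Ucp1*, *Ppargc1a*, *Pparg* and B cell markers are named. Of each other list up to 3 called genes per direction are named, except for a few that are not reported here, and any further gene was chosen after its values were seen. Lists are described by counts and medians, with no set test.

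Depth was estimated from the steps between FPKM values of 303 RNAs of at most 400 bases, for up to 6 reads, after an offset of 36 bases was subtracted from the length. Of these values, 85.2% to 91.2% were whole reads within 0.1. The largest error was 1.51% in 3 simulated libraries. For most genes the steps are too fine to give whole reads, and no count model was used. In simulated data of 12658 genes for cKO against Ctrl, 92 of 92 genes at an absolute log2 fold change of 1.5 were called. At 0.6, 86 of 96 were called. There were 17 false calls, and with no gene changed there was 1 call. The simulation changed 200 genes and drew independent noise from the variances of the fit itself. Its smaller change exceeds those of *Cebpb*, *Ebf2*, *Ebf1* and *Cebpa*, so recovery at their size was not tested. Alternatives were a pseudocount of 0.1, no filter, a filter at 5 FPKM, quantile normalization, median-of-ratios scaling, eBayes without trend, a block for the replicate number, and each library left out in turn.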

Additional observations from a re-analysis of the deposited data

How the results depend on the processing

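The call of *Twist1* held under all 11 alternatives, and that of *Cebpb* under all but the removal of the filter. With no filter, 1762 genes were called instead of 3269 (667 higher and 1095 lower, against 1519 and 1750), only 3 regulators remained called, and *Cebpa* (log2 fold change -0.28, adjusted p = 0.0851) and *Cebpb* (0.55, adjusted p = 0.0551) did not pass. This setting tests 19030 genes. eBayes without trend also lost *Cebpa* (-0.28, adjusted p = 0.0503). *Tle3* passed at a filter of 5 FPKM (0.20), with median-of-ratios scaling (0.22) and with quantile normalization (0.21). At 5 FPKM *Prdm16*, *Zfp516* and *Zfp423* did not enter the test, and neither did their ratios. The cause was not tested.

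With a library left out, the lone library of its group being assumed to vary like the other group, 787 to 2340 genes were called (303 to 1072 higher, 484 to 1379 lower), the fewest without Ctrl 1. Of the regulators 2 to 4 were called, and of the genes of the pathway lists 10 to 13 were higher and 7 to 16 lower. Log2 fold changes ran from -0.35 to -0.21 for *Cebpa*, -0.32 to -0.28 for *Ebf1*, -0.45 to -0.39 for *Ebf2*, 0.03 to 0.16 for *Prdm16*, -0.22 to -0.04 for *Irf4*, -0.28 to -0.10 for *Zfp423*, and -0.080 to 0.21 for *Zfp516*, which was negative only without cKO 2. No other regulator changed sign under any alternative. The directions of the 6 ratios were the same under every alternative in which they could be computed.

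The sources do not say that equal replicate numbers mark a shared animal, litter or day. The deviations of the replicate 1 libraries from their group means had a correlation of 0.0148 over genes. With the replicate number as a block, 3383 genes were called (1594 higher, 1789 lower), and the same 5 regulators. Their log2 fold changes do not change under the block. Depth limits the low regulators most, since *Prdm16* rested on at most 299 estimated reads in a library. These figures cover counting error only.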

Other observations

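Markers of further cell types also moved. T cell markers were higher in cKO for 9 of 11 genes (median log2 fold change 0.55), with sums of 158 to 165 FPKM in Ctrl and 217 to 284 FPKM in cKO. The rises of *Cd3d* (0.77), *Ccr7* (0.73) and *Cd3g* (0.66) were the largest. Schwann and nerve markers fell for 4 of 5 genes, among them the myelin gene *Mbp* (-1.20), while *S100b* rose (0.97). Endothelial markers fell for 4 of 8 genes, among them *Tek* (-0.60), *Emcn* (-0.38) and *Tie1* (-0.34). Of smooth muscle and pericyte markers 4 of 8 fell, lowest in *Des* (-0.92), *Notch3* (-0.52) and *Cspg4* (-0.50), and *Acta2* rose (0.24). *Des* is also a gene of skeletal muscle, whose markers summed to 2449 and 1646 FPKM in Ctrl 1 and Ctrl 2 and to 10.7 and 8.5 FPKM in cKO, and *Des* itself stood at 40.9 and 31.3 FPKM in Ctrl and 17.9 and 18.9 FPKM in cKO. The part of muscle in its fall was not tested. Of keratinocyte and mammary epithelium markers 2 could be tested, and *Trp63* fell (-0.76).

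The real-time PCR primer pair that the study lists for *Twist1* (ggacaagctgagcaagattca and cggagaaggcgtagctgag) is also the pair that it lists for *Ucp1*. In the GENCODE M21 transcripts it matched *Twist1* and no other gene, with a product of 146 bases. By real-time PCR the study reports *Ucp1* higher and *Twist1* lower in cKO ingWAT after cold exposure. Which pair was used for *Ucp1* cannot be told from the list. No real-time PCR value enters the results here.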
